A study of Mus musculus with 18 samples.

Results

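The genes described here are 42 genes of the endothelium, the cell layer that lines blood and lymph vessels, as they were read on arrays of mouse lung and lung tumours. They were listed by name, and each was represented by the probe set (the group of array probes that reads one RNA) annotated to that gene alone, taking the brightest where several qualified. All 42 were found among 18193 genes measured in this way. The study set 3 groups of 6 arrays against each other in B6C3F1/N mice, a hybrid strain with its own background rate of lung tumours. Control lung came from animals given the vehicle only. Spontaneous tumours carry no cobalt exposure in their labels, and cobalt tumours arose in animals that inhaled cobalt metal dust. The exposure study began at 5 to 6 weeks of age and used air with 1.25, 2.5 and 5 mg/m3 of dust, beside clean air at 0, for 6 hours a day, 5 days a week, for up to 105 weeks. The labels do not say which concentration, which sex or which age at death belongs to an array, and the tumours were cut out of the surrounding lung before RNA extraction. Nothing in the labels ties an array to a separate animal, and the p-values then reflect the scatter among arrays, which may be technical.

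Endothelial cells hold to each other through junction proteins, keep their identity through ETS and SOX transcription factors, and read flow, angiopoietins and lipid mediators through their own receptors. Lung capillaries are made of a general capillary cell, which can divide and repair the bed, and of the aerocyte, a large thin cell that faces the air space. Larger veins and inflamed vessels carry von Willebrand factor and the adhesion molecules that stop leukocytes.

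The values are log2 intensities, so a difference of 1 is a 2-fold difference. In control lung, 39 of the 42 genes lay above the median of every array (6.32 to 6.45) in all 6 arrays. The exceptions were Selp, Sele and Prox1. These medians cover all probe sets, while each gene was read by its brightest one. The share of all genes that lay above them was not counted, so this describes signal level and not cell identity. Because the tissue is bulk, fewer endothelial cells and less RNA per endothelial cell cannot be told apart in any result that follows.

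Most of the endothelial programme was lower in both kinds of tumour. In spontaneous tumours 35 of the 42 genes fell against control lung and 0 rose (limma, adjusted p under 0.05), where 18.2% of all genes fell and 16.4% rose. In cobalt tumours 36 fell and 0 rose, where 19.3% of all genes fell and 14.7% rose. In either direction 34.6% of all genes changed in spontaneous tumours and 34% in cobalt tumours. The median change over the 42 genes was -2.51 in spontaneous and -2.48 in cobalt tumours, beside -0.03 over all genes in both comparisons. A fall of at least 4-fold was found for 28 genes in spontaneous tumours, where 2.4% of all genes fell that far, and for 29 genes in cobalt tumours, where 2.57% did. For 33 genes every spontaneous tumour lay below every control lung (11.9% of all genes did so), and for 32 genes every cobalt tumour did (10.8%). For 0 genes every tumour of a group lay above every control lung, where 9.21% of all genes did in spontaneous and 8.1% in cobalt tumours. The same 6 control lungs serve both comparisons, so their values are given side by side and are not independent of each other.

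**Figure D1:**
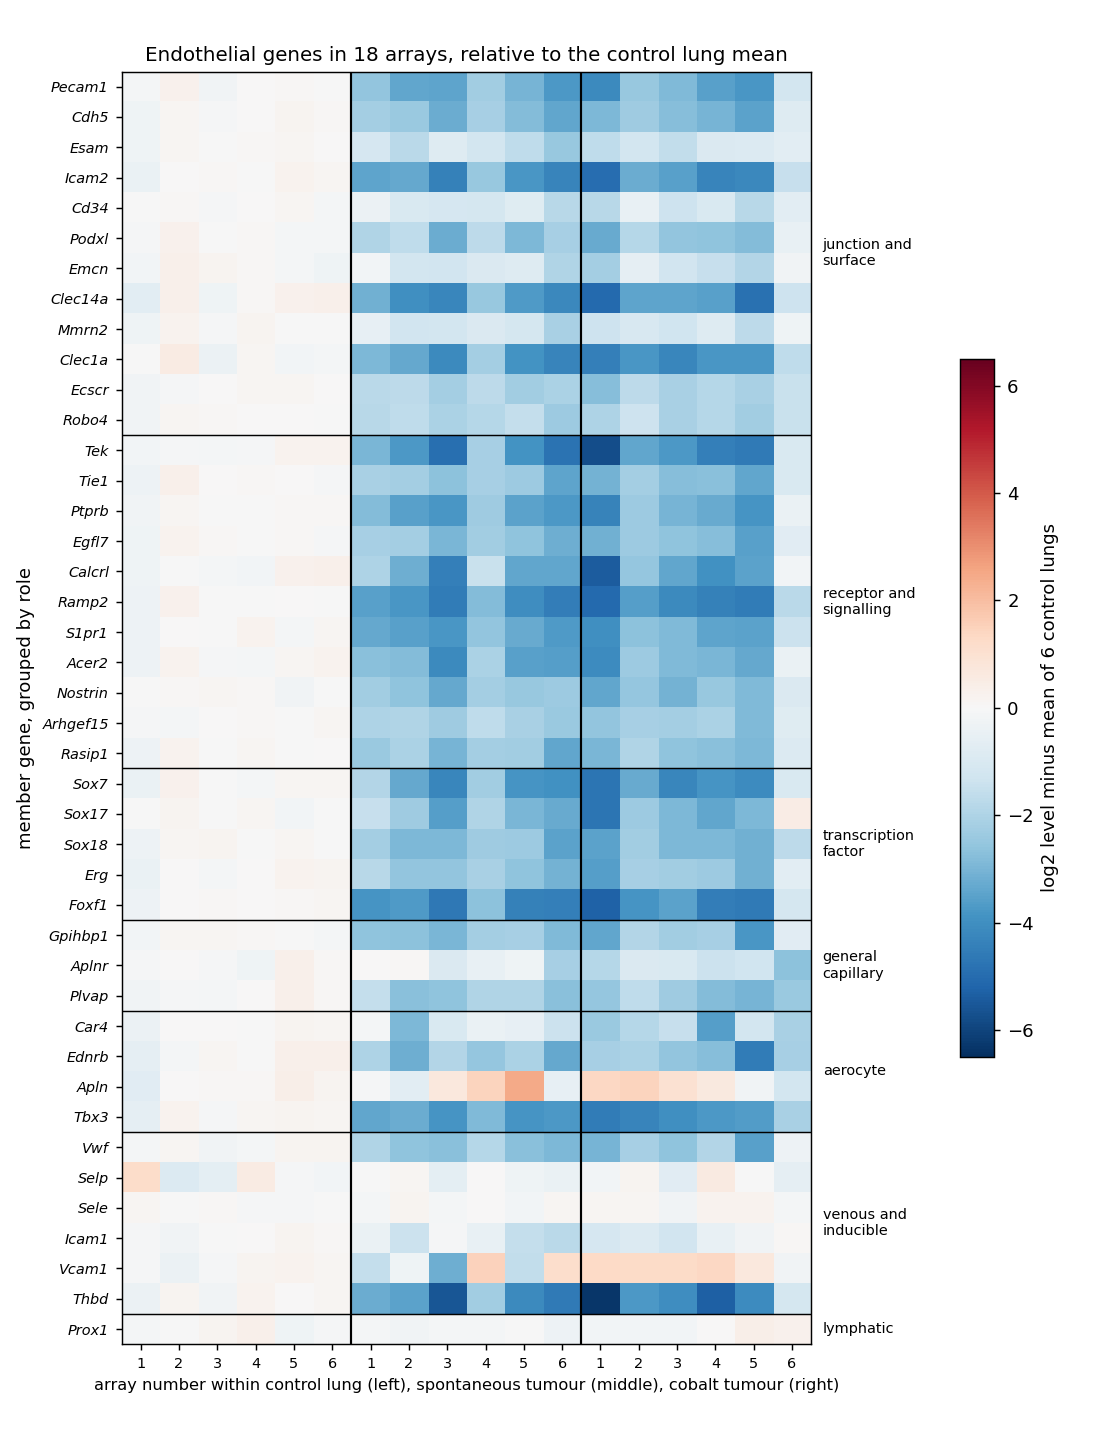
Level of each of the 42 genes in each of the 18 arrays, as the log2 value minus the mean of the 6 control lungs, with genes grouped by role from top to bottom and arrays in label order. Blue is lower and red higher than control lung; the tumour arrays are blue for most genes, paler in cobalt tumour 6, and Apln and Vcam1 turn red in several tumours.

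**Figure D2:**
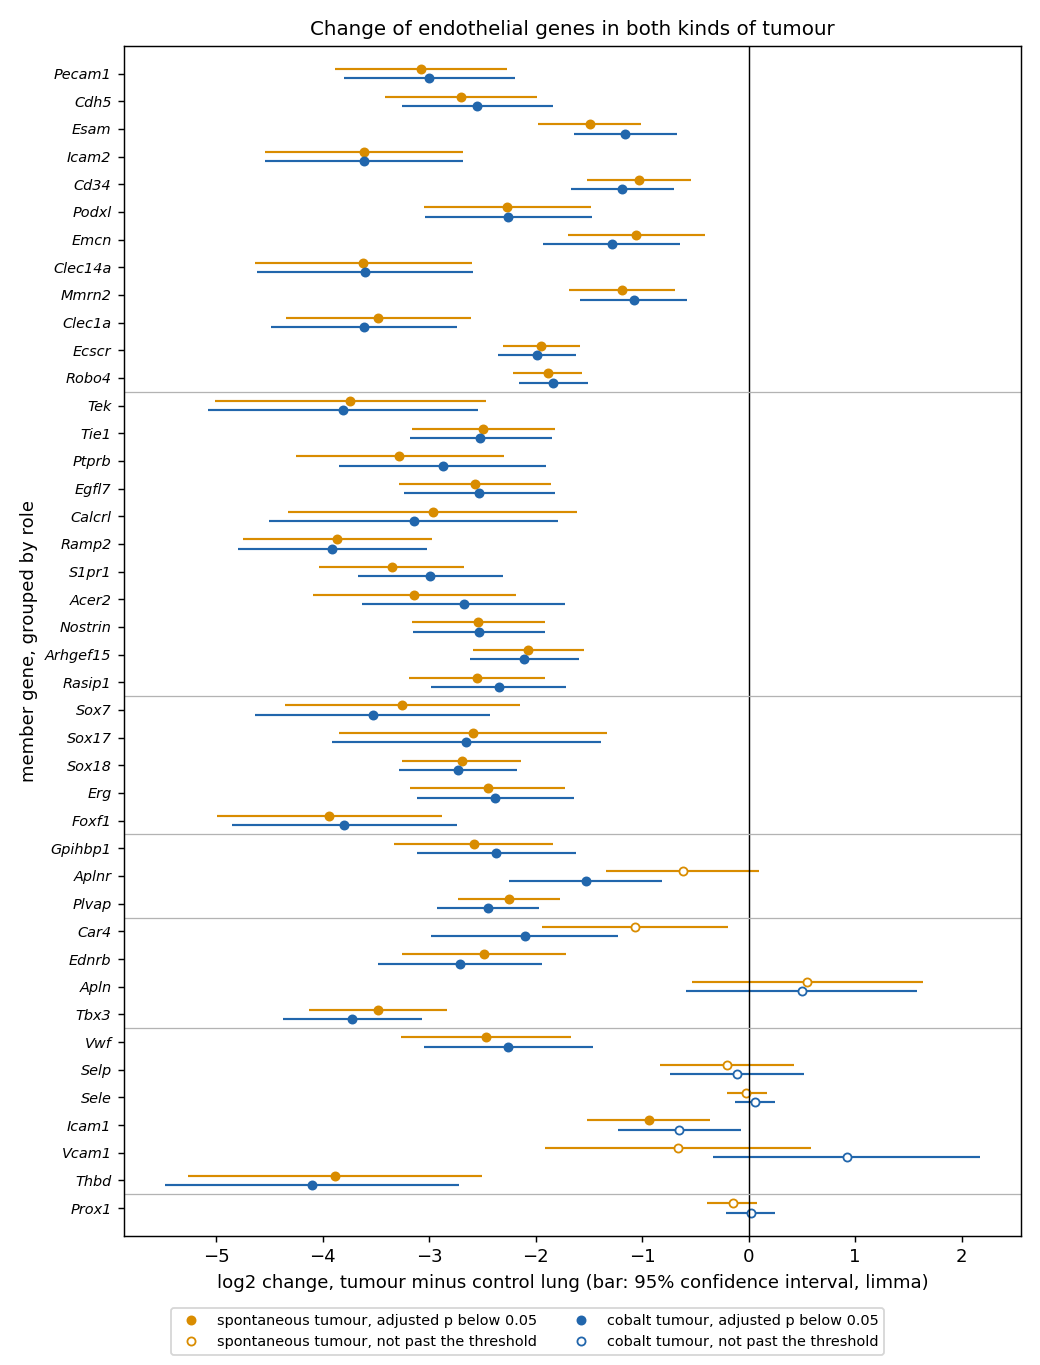
Difference between each tumour group and control lung for the 42 genes, as log2 with its 95% confidence interval from limma; filled points passed an adjusted p of 0.05 and open points did not. Both kinds of tumour lie close together for most genes, and the open points gather among Aplnr, Car4, Apln, Selp, Sele, Icam1, Vcam1 and Prox1.

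Some arrays stood apart and touch these results. Cobalt tumour 6 correlated more with the control lungs (mean r = 0.969 over all genes) than with its own group (0.945). It was the highest cobalt tumour for 31 of the 42 genes. For 8 of the 42 genes it was at or above the lowest control lung. Among these were Selp, Vcam1 and Prox1, for which it was not the highest cobalt tumour. Without it 37 of the 42 genes fell and 0 rose in cobalt tumours, where 6763 of all 18193 genes changed in either direction. The median change over the 42 genes moved from -2.48 to -2.77. On the second principal component, spontaneous tumours 2 and 6 lay at 62.1 and 53.5, while the remaining tumours did not exceed 22.3. Control 1 was the lowest control lung for 27 of the 42 genes, and its mean over 7 leukocyte genes was 1.45 above the control mean while the other controls lay between -0.75 and 0.11. Xist, the RNA of the inactive X chromosome, was high in all 6 control lungs, in 2 spontaneous tumours and in 4 cobalt tumours. With only those arrays 36 of the 42 genes fell in each tumour group. Of all 18193 genes 4305 changed in either direction in spontaneous and 5050 in cobalt tumours. Control 6 is described in 1 label field as a tumour, while its title, source and group field say control, and its mean over the 28 junction, receptor and transcription factor genes was 0.05 above the control mean. Where the text leaves out 3 arrays together, these are cobalt tumour 6 and spontaneous tumours 2 and 6.

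Promoter sequence from RefSeq was at hand for 19 of the 42 genes, in 24 windows of 300 bases, each from 250 bases before to 50 bases after a transcription start (mouse GRCm38.p6). The 3 of these genes with the deepest falls in cobalt tumours, Tek, Clec14a and Calcrl, are shown with Apln, which did not pass in either comparison and was chosen after its values were seen. Capitals mark matches, on either strand, to motifs of the factor families that govern endothelial genes: CAGGAAG for ETS, AACAAT and ACAAAG for SOX, GTAAACA for FOX and AGATAA for GATA. No motif contains another. The windows are chr4:94739039-94739338, plus strand, for Tek, chr12:58269209-58269508, minus strand, for Clec14a, chr2:84425217-84425516, minus strand, for Calcrl and chrX:48034804-48035103, minus strand, for Apln, each read 5′ to 3′ along the gene.
Tek: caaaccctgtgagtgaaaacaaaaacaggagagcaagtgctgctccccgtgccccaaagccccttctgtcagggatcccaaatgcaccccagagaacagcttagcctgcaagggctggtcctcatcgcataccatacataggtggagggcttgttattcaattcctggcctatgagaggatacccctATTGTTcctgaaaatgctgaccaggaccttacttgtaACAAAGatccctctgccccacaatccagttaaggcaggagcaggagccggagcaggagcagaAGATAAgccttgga
Clec14a: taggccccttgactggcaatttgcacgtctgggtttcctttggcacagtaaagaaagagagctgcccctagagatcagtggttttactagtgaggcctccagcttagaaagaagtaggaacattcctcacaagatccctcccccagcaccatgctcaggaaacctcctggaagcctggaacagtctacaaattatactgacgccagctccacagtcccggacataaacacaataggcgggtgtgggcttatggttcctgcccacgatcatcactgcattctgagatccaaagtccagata
Calcrl: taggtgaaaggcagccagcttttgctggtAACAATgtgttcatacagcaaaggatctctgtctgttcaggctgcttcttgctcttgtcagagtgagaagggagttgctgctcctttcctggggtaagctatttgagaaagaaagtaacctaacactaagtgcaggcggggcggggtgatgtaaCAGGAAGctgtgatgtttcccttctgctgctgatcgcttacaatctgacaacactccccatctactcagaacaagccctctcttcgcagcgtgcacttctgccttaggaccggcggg
Apln: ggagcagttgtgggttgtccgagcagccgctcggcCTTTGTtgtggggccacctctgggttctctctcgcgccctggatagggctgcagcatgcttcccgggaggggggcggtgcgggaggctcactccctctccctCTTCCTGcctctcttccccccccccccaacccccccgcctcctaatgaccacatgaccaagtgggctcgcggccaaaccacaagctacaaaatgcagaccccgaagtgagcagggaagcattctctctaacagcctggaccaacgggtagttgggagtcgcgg
The Tek window held both SOX words and the GATA word, the Calcrl window an ETS and a SOX word, and the Clec14a window none of them. The Apln window also held an ETS and a SOX word. Over the 24 windows the ETS word was present in 10 (41.7%), belonging to 9 genes, and in 13.3% of all 32851 promoters of the same length. The AACAAT word was in 16.7% of the windows and 10.7% of all promoters, and ACAAAG in 16.7% and 18.7%. The GATA word was in 8.33% and 11.2%, and the FOX word in 0 of the 24 windows and 3.65% of all promoters. These are letter matches and say nothing of binding.

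All 12 junction and surface genes fell in both kinds of tumour, by a median of -2.11 in spontaneous and -2.12 in cobalt tumours. Clec14a, a C-type lectin of the vessel wall, ran from 11.02 through a median of 11.88 to 12.03 in control lung. It ran from 7.45 through 7.87 to 9.27 in spontaneous tumours and from 6.67 through 8.23 to 10.35 in cobalt tumours. No tumour reached the lowest control lung. Clec14a was 12.3-fold lower in spontaneous tumours (log2 -3.62, SE 0.48, limma adjusted p = 2.17e-05) and 12.1-fold lower in cobalt tumours (-3.6, SE 0.48, adjusted p = 2.26e-05). Icam2, an adhesion molecule that resting endothelium makes all the time, had lowest, median and highest levels of 11.45, 11.97 and 12.11 in control lung, of 7.5, 8.31 and 9.45 in spontaneous tumours and of 6.96, 8.04 and 10.43 in cobalt tumours. Its groups of tumours and controls did not overlap, and it was 12.2-fold lower in each comparison (log2 -3.61, SE 0.44, adjusted p = 9.52e-06 and 9.33e-06).

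Clec1a, another endothelial lectin, had 10.18, 10.48 and 11.08 in control lung, 6.23, 6.92 and 8.33 in spontaneous tumours and 6.11, 6.75 and 8.9 in cobalt tumours. The highest cobalt value belonged to cobalt tumour 6, and the other 5 cobalt tumours lay at or below 6.77. Clec1a was 11.1-fold lower in spontaneous (-3.48, SE 0.41, adjusted p = 7.21e-06) and 12.2-fold lower in cobalt tumours (-3.61, SE 0.41, adjusted p = 4.72e-06). Pecam1, the junction protein CD31 used to stain vessels, had 11.82, 12.03 and 12.31 in control lung, 8.3, 8.82 and 9.76 in spontaneous tumours and 7.88, 8.83 and 10.84 in cobalt tumours. It was 8.43-fold lower in spontaneous (-3.08, SE 0.38, adjusted p = 1.11e-05) and 7.98-fold lower in cobalt tumours (-3, SE 0.38, adjusted p = 1.41e-05), with no overlap. Cdh5, the VE-cadherin of endothelial junctions, fell 6.49-fold and 5.84-fold in the same order.

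The smallest falls of the class were those of Esam, Cd34, Emcn and Mmrn2. Esam, a junction molecule, was lower by 1.49 in spontaneous and by 1.16 in cobalt tumours on the log2 scale. Cd34, the sialomucin of capillaries and progenitors, differed by -1.03 and -1.19. Emcn, a mucin of capillary and venous endothelium, differed by -1.06 and -1.28, and Mmrn2, a matrix partner of Clec14a, by -1.19 and -1.08. One spontaneous tumour and 1 cobalt tumour reached the control range of Emcn, and 1 cobalt tumour reached that of Mmrn2. Podxl, Ecscr and Robo4 lay between these and Pecam1, at -2.27 to -1.88 in spontaneous and -2.26 to -1.84 in cobalt tumours.

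All 11 receptor and signalling genes fell in both kinds of tumour, each by at least 4-fold, with medians of -2.96 in spontaneous and -2.67 in cobalt tumours. Ramp2 and Calcrl together encode the adrenomedullin receptor. Ramp2 had lowest, median and highest levels of 12.42, 12.74 and 13.03 in control lung, 8.22, 8.84 and 9.95 in spontaneous tumours and 7.69, 8.48 and 11 in cobalt tumours. The tumours all lay below the controls, and the fall was 14.5-fold in spontaneous (-3.86, SE 0.42, adjusted p = 3.14e-06) and 15-fold in cobalt tumours (-3.91, SE 0.42, adjusted p = 2.73e-06). Calcrl, whose promoter is printed above, had 12.1, 12.3 and 12.72 in control lung, 7.93, 9.12 and 10.96 in spontaneous tumours and 6.97, 8.97 and 12.21 in cobalt tumours. Cobalt tumour 6 lay within the control range of Calcrl and the other cobalt tumours lay below it. Calcrl was 7.8-fold lower in spontaneous (-2.96, SE 0.64, adjusted p = 0.00161) and 8.83-fold lower in cobalt tumours (-3.14, SE 0.64, adjusted p = 0.000981).

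Tek, the angiopoietin receptor TIE2, read 11.49, 11.6, 11.55, 11.63, 11.93 and 11.92 in control lungs 1 to 6. Spontaneous tumours 1 to 6 read 8.7, 7.95, 6.81, 9.53, 7.78 and 6.91, and cobalt tumours 1 to 6 read 5.92, 8.31, 7.95, 7.26, 7.09 and 10.72. The controls lay within less than 1 unit of each other, the tumours spread over several units, and none reached the controls. The fall was 13.3-fold in spontaneous (-3.74, SE 0.6, adjusted p = 0.000125) and 14-fold in cobalt tumours (-3.81, SE 0.6, adjusted p = 0.000106). Tie1, the related receptor, fell 5.61-fold and 5.72-fold. Ptprb, the phosphatase VE-PTP that restrains TEK, had 12.75, 13.02 and 13.13 in control lung, 9.22, 9.49 and 10.67 in spontaneous tumours and 8.67, 9.86 and 12.54 in cobalt tumours. Its groups did not overlap, with a fall of 9.7-fold in spontaneous (-3.28, SE 0.46, adjusted p = 3.79e-05) and 7.33-fold in cobalt tumours (-2.87, SE 0.46, adjusted p = 0.000127).

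S1pr1, the sphingosine-1-phosphate receptor that steadies junctions, had 10.78, 11.12 and 11.34 in control lung, 7.34, 7.66 and 8.56 in spontaneous tumours and 7.09, 7.93 and 9.7 in cobalt tumours. It was 10.2-fold lower in spontaneous (-3.35, SE 0.32, adjusted p = 8.94e-07) and 7.93-fold lower in cobalt tumours (-2.99, SE 0.32, adjusted p = 2.73e-06), with no overlap. Acer2, a Golgi ceramidase that feeds the same lipid pathway, had 11.62, 11.97 and 12.16 in control lung, 7.81, 8.78 and 9.87 in spontaneous tumours and 7.84, 9.03 and 11.5 in cobalt tumours. Acer2 was 8.8-fold lower in spontaneous (-3.14, SE 0.45, adjusted p = 4.59e-05) and 6.39-fold lower in cobalt tumours (-2.67, SE 0.45, adjusted p = 0.000199). The remaining genes of the class, Egfl7 (a secreted vessel protein), Nostrin (a partner of the endothelial nitric oxide synthase), Arhgef15 and Rasip1 (regulators of small GTPases), changed by -2.57 to -2.07 in spontaneous and by -2.53 to -2.11 in cobalt tumours.

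All 5 transcription factor genes fell by at least 4-fold in both kinds of tumour. Foxf1, a forkhead factor of lung capillaries that lung mesenchyme also makes, had 11.27, 11.63 and 11.73 in control lung, 6.95, 7.47 and 8.93 in spontaneous tumours and 6.35, 7.42 and 10.42 in cobalt tumours. No tumour reached the controls, and Foxf1 had the deepest fall of the 42 genes in spontaneous tumours, at 15.3-fold (-3.94, SE 0.5, adjusted p = 1.43e-05), with 13.9-fold in cobalt tumours (-3.8, SE 0.5, adjusted p = 2.03e-05). Among 8 fibroblast genes 3 fell and 1 rose in spontaneous tumours, and 4 fell in cobalt tumours. Their summed level in each array, as a mean relative to control lung, was -1.91 to -0.55 in spontaneous and -2.16 to -0.36 in cobalt tumours, and its part in the Foxf1 result was not tested. Sox7 had 10.3, 10.77 and 11.01 in control lung, 6.45, 7.13 and 8.83 in spontaneous tumours and 5.95, 6.75 and 9.72 in cobalt tumours. Sox7 was 9.53-fold lower in spontaneous (-3.25, SE 0.52, adjusted p = 0.00012) and 11.6-fold lower in cobalt tumours (-3.53, SE 0.52, adjusted p = 5.71e-05), again without overlap. Its relatives Sox17 and Sox18 and the ETS factor Erg changed by -2.69 to -2.45 in spontaneous and by -2.73 to -2.38 in cobalt tumours. Cobalt tumour 6 was the exception for Sox17, where its 10.99 was above the highest control lung at 10.68.

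**Figure D3:**
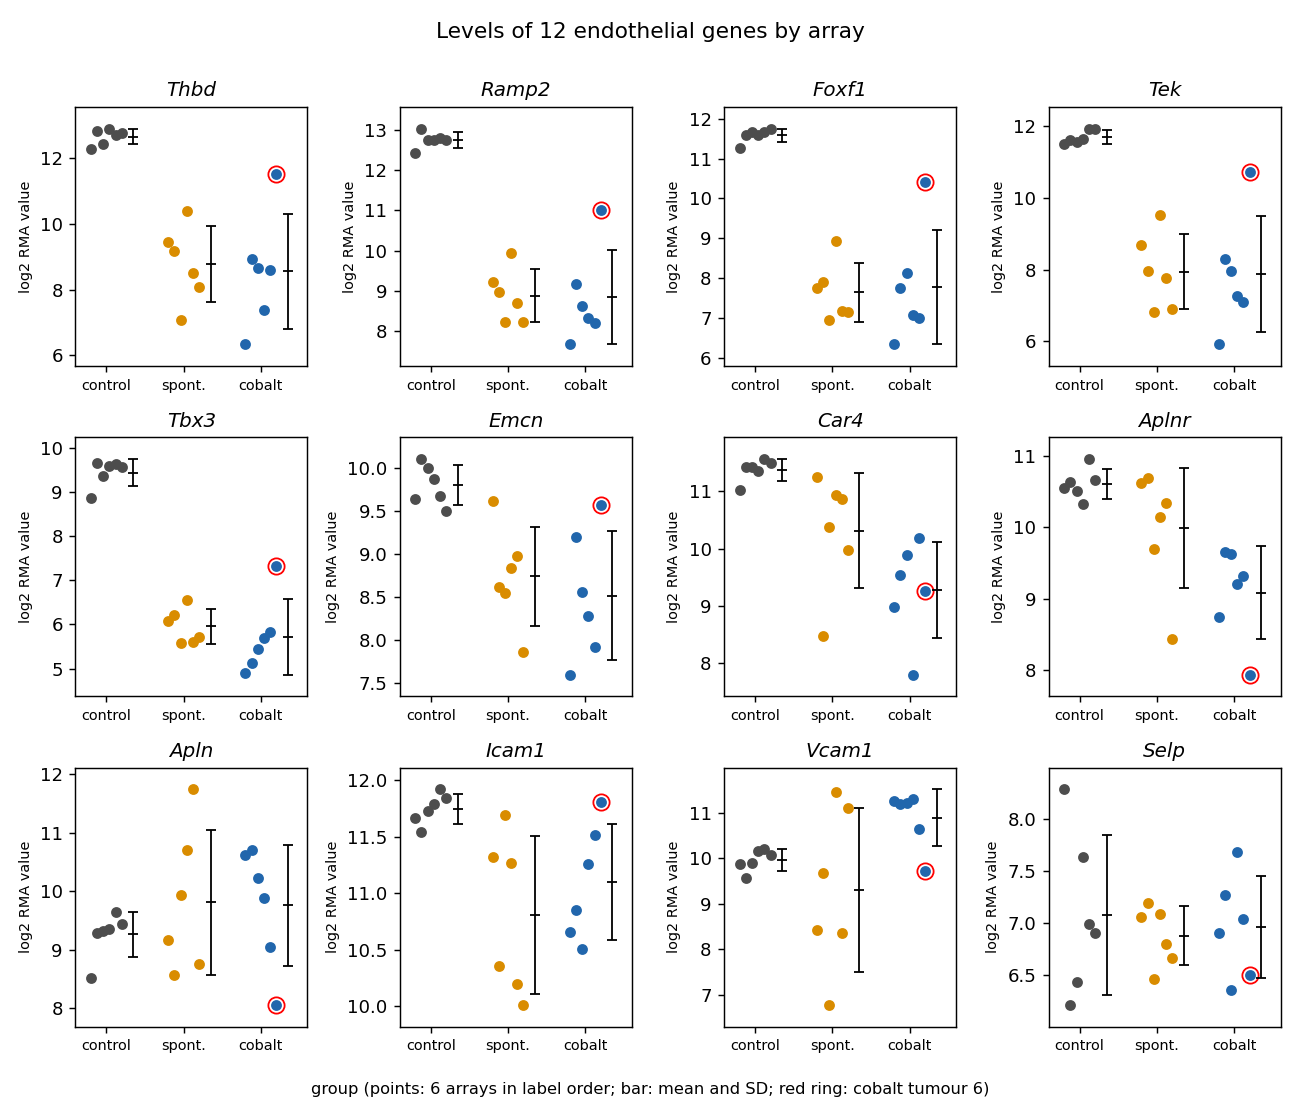
Log2 level of 12 of the genes in each array, with the mean and SD of each group of 6 beside the points; axes differ between panels and do not start at 0. In the first row and for Tbx3 the tumours lie below the controls. Emcn, Car4, Aplnr, Apln, Icam1, Vcam1 and Selp overlap them in either or both tumour groups. The red ring marks cobalt tumour 6, highest of its group for Thbd, Ramp2, Foxf1, Tek, Tbx3, Emcn and Icam1 and lowest for Aplnr, Apln and Vcam1.

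The capillary genes did not move as a block. Of the 3 general capillary genes, Gpihbp1, which carries lipoprotein lipase to the vessel surface, fell 6-fold in spontaneous and 5.16-fold in cobalt tumours. Plvap, the protein of fenestrae and caveolae diaphragms, fell 4.77-fold and 5.46-fold. Aplnr, the apelin receptor, read 10.55, 10.64, 10.51, 10.33, 10.96 and 10.67 in control lungs 1 to 6. Spontaneous tumours 1 to 6 read 10.63, 10.69, 9.69, 10.15, 10.34 and 8.43, and cobalt tumours 1 to 6 read 8.74, 9.65, 9.63, 9.21, 9.32 and 7.93. In spontaneous tumours 3 of 6 arrays lay within the control range, while every cobalt tumour lay below it. Aplnr was 2.89-fold lower in cobalt tumours (-1.53, SE 0.34, adjusted p = 0.00194), and in spontaneous tumours it differed by -0.62 without passing (SE 0.34, adjusted p = 0.174). A second, dimmer Aplnr probe set differed by -0.58 in spontaneous tumours (adjusted p = 0.0402 over all probe sets) and by -0.89 in cobalt tumours (0.00326).

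Among the 4 aerocyte genes, Tbx3, a T-box factor, had 8.85, 9.58 and 9.64 in control lung, 5.58, 5.89 and 6.55 in spontaneous tumours and 4.9, 5.56 and 7.31 in cobalt tumours. Tbx3 fell without overlap, 11.2-fold in spontaneous (-3.48, SE 0.31, adjusted p = 4.12e-07) and 13.2-fold in cobalt tumours (-3.72, SE 0.31, adjusted p = 2.16e-07). Ednrb, the endothelin B receptor, fell 5.58-fold and 6.55-fold. Car4, the membrane carbonic anhydrase of aerocytes, read 11.02, 11.42, 11.42, 11.35, 11.56 and 11.5 in control lungs 1 to 6. It read 11.26, 8.47, 10.38, 10.94, 10.86 and 9.97 in spontaneous tumours and 8.98, 9.54, 9.89, 7.79, 10.18 and 9.26 in cobalt tumours. Only spontaneous tumour 1 lay within the control range of Car4. Car4 was 4.3-fold lower in cobalt tumours (-2.1, SE 0.41, adjusted p = 0.00072), and the 2.09-fold difference in spontaneous tumours did not pass (-1.07, SE 0.41, adjusted p = 0.0553). Without the 3 arrays that stood apart the spontaneous value was -0.52 (adjusted p = 0.27).

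Apln, the ligand apelin, made by aerocytes and by sprouting tip cells, did not pass in either comparison and had a positive difference in both. Control lungs 1 to 6 read 8.52, 9.28, 9.32, 9.36, 9.65 and 9.43. Spontaneous tumours read 9.17, 8.56, 9.93, 10.7, 11.74 and 8.75, and cobalt tumours read 10.62, 10.71, 10.23, 9.89, 9.04 and 8.05. Apln was above every control lung in 3 of 6 spontaneous and 4 of 6 cobalt tumours, and below every control lung in cobalt tumour 6. The mean differences of 0.55 (SE 0.52, adjusted p = 0.434) and 0.5 (SE 0.52, adjusted p = 0.502) did not pass limma's threshold. Leaving out the 3 arrays that stood apart, a choice made after seeing the data, gave 1.13 in spontaneous tumours (adjusted p = 0.0482) and 0.84 in cobalt tumours (adjusted p = 0.105). Measured against the mean change of the 28 junction, receptor and transcription factor genes in the same array, Apln was higher by 3.22 in spontaneous and by 3.13 in cobalt tumours, a description with no test. The same measure was 2.01 and 3.55 for Vcam1, 2.66 and 2.69 for Sele, 2.52 and 2.65 for Prox1 and 2.47 and 2.52 for Selp, since any gene with a difference near 0 lies far above genes that fell.

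The 6 genes grouped as venous and inducible split, and whether the grouping holds for each of them was not tested. Thbd, thrombomodulin, which turns thrombin towards anticoagulation, read 12.3, 12.85, 12.45, 12.91, 12.71 and 12.79 in control lungs 1 to 6. Spontaneous tumours read 9.45, 9.17, 7.09, 10.4, 8.52 and 8.08, and cobalt tumours read 6.34, 8.94, 8.65, 7.37, 8.59 and 11.52. No tumour reached the controls, cobalt tumour 6 being the nearest. Thbd was 14.7-fold lower in spontaneous (-3.88, SE 0.66, adjusted p = 0.000193) and 17.1-fold lower in cobalt tumours (-4.1, SE 0.66, adjusted p = 0.000118), the deepest fall of the 42 genes there. Vwf, von Willebrand factor, fell 5.53-fold in spontaneous and 4.78-fold in cobalt tumours without overlap. Vwf and Selp are also stored in platelets. Of 8 platelet genes 5 fell and 0 rose in spontaneous tumours and 6 fell and 1 rose in cobalt tumours, with list means relative to control lung of -1.36 to -0.47 and -1.51 to -0.99 in the tumours and -0.58 to 0.73 in the controls, and their part in the Vwf result was not tested.

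Icam1, an adhesion molecule induced by inflammation and also made by alveolar epithelium, had 11.54, 11.76 and 11.92 in control lung, 10.01, 10.81 and 11.69 in spontaneous tumours and 10.51, 11.05 and 11.81 in cobalt tumours. One array of each tumour group (spontaneous tumour 3 and cobalt tumour 6) lay within the control range. Icam1 fell 1.92-fold in spontaneous tumours (-0.94, SE 0.28, adjusted p = 0.0134), and in cobalt tumours its -0.65 did not pass (SE 0.28, adjusted p = 0.0812). Without cobalt tumour 6 the cobalt value was -0.79 and passed (adjusted p = 0.0318). Without the 3 arrays that stood apart the spontaneous value was -0.63 and did not (adjusted p = 0.0587).

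Vcam1, the adhesion molecule that captures lymphocytes and monocytes, read 9.88, 9.57, 9.89, 10.16, 10.21 and 10.07 in control lungs 1 to 6. Spontaneous tumours read 8.43, 9.68, 6.78, 11.46, 8.37 and 11.09, and cobalt tumours read 11.26, 11.19, 11.22, 11.29, 10.63 and 9.72. Above every control lung lay 5 of 6 cobalt tumours, whereas spontaneous tumours lay above in 2, below in 3 and within in 1. The cobalt difference of 0.92 did not pass in the shared fit (SE 0.59, adjusted p = 0.255), where the wide spontaneous group sets part of the spread. It passed when only control and cobalt arrays were fitted (0.92, adjusted p = 0.0108). The spontaneous difference was -0.66 (SE 0.59, adjusted p = 0.414) and turned to 1.31 (adjusted p = 0.0161) with only the Xist-high arrays, which keep spontaneous tumours 4 and 6. Both other Vcam1 probe sets had the same signs.

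Selp, P-selectin, had 6.21, 6.95 and 8.28 in control lung, 6.46, 6.93 and 7.19 in spontaneous tumours and 6.36, 6.97 and 7.68 in cobalt tumours. The control lungs spanned both tumour groups, and the differences of -0.2 (adjusted p = 0.642) and -0.11 (adjusted p = 0.812) turned to 0.04 and 0.13 without control 1. Sele, E-selectin, which inflamed endothelium makes, had 4.39, 4.47 and 4.6 in control lung, 4.31, 4.44 and 4.66 in spontaneous tumours and 4.25, 4.62 and 4.72 in cobalt tumours. Prox1, the factor that sets lymphatic identity and the only lymphatic gene of the list, had 3.89, 4.09 and 4.47 in control lung, 3.83, 4.01 and 4.14 in spontaneous tumours and 3.97, 4.07 and 4.51 in cobalt tumours. The 3 groups overlapped for both genes. Neither differed from control lung by more than 0.15 on the log2 scale (limma adjusted p = 0.306 to 0.911). At levels this far under the array medians it is unknown whether these probe sets detected their RNA.

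Between the 2 kinds of tumour 0 of the 42 genes passed (limma), where 0.0824% of all genes did (0.0385% lower and 0.044% higher in cobalt tumours). At an unadjusted limma p under 0.05 there were 3 of the 42 genes, beside 2105 of all 18193 genes, a share no larger than among all genes. Aplnr was lower in cobalt than in spontaneous tumours by -0.91 (95% interval -1.63 to -0.19, limma adjusted p = 0.299) and Car4 by -1.04 (-1.91 to -0.17, adjusted p = 0.328). The dimmer Aplnr probe set differed by only -0.3 (limma adjusted p = 0.653 over all probe sets), and that of Car4 by -0.98 (0.353). Vcam1 was higher by 1.58 (0.34 to 2.83, adjusted p = 0.299). Thus the capillary genes that passed against control lung in cobalt tumours and not in spontaneous ones were not shown to differ between the tumours, and neither was Icam1 (0.29, interval -0.29 to 0.87, adjusted p = 0.739). For 25 of the 42 genes the 95% interval of the difference lay within 1 log2 unit of 0, so a difference of more than 2-fold was outside it. The intervals were wider for Tek (-1.34 to 1.2), Calcrl (-1.53 to 1.17) and Thbd (-1.6 to 1.16). With the 3 arrays that stood apart left out, a choice made after seeing the data, 354 of all 18193 genes passed. Aplnr (-0.89, limma adjusted p = 0.0341) and Car4 (-1.58, adjusted p = 0.0348) were among them. Without cobalt tumour 6 alone 0 of the 42 genes passed, beside 82 of all genes.

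The genes spread more among tumours than among control lungs. The SD over 6 arrays had a median of 0.19 across the 42 genes in control lung, 0.56 in spontaneous tumours and 0.92 in cobalt tumours. Without cobalt tumour 6 the cobalt median was 0.53, next to that of spontaneous tumours, and the SD of Cdh5 went from 0.93 to 0.41. The SD was larger in spontaneous tumours than in control lung for 40 genes, and larger in cobalt tumours for 41 with or without cobalt tumour 6. Tumours also differed more over all genes. The SD of the difference between 2 arrays of a group was 0.181 to 0.505 in control lung. It was 0.436 to 0.776 in spontaneous and 0.438 to 0.825 in cobalt tumours. The wider spread was therefore not shown to be particular to the 42 genes. The mean of the 28 junction, receptor and transcription factor genes, relative to control lung, ran from -0.26 to 0.15 in the controls, from -3.26 to -2 in spontaneous tumours and from -3.65 to -0.9 in cobalt tumours. Some tumours were the lowest or highest for many of the genes. Cobalt tumour 1 was the lowest of its group for 24 of the 42 genes, spontaneous tumours 6 and 3 for 19 and 18, and spontaneous tumour 4 was the highest of its group for 18. In cobalt tumour 6 those 28 genes were at -0.9 while the 3 general capillary genes were at -1.95 and the 4 aerocyte genes at -1.9, inside the range of the other cobalt tumours (-2.69 to -1.5 and -2.39 to -1.69). Members of these short lists differed in that array: Aplnr (7.93) and Apln (8.05) were the lowest of the cobalt group, while Gpihbp1 (11.22, the others 8.2 to 10.06) and Tbx3 (7.31, the others 4.9 to 5.82) were the highest. The mean of the 11 other capillary genes was -0.22 there, above the -1.65 to -1.02 of the other cobalt tumours.

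**Figure D4:**
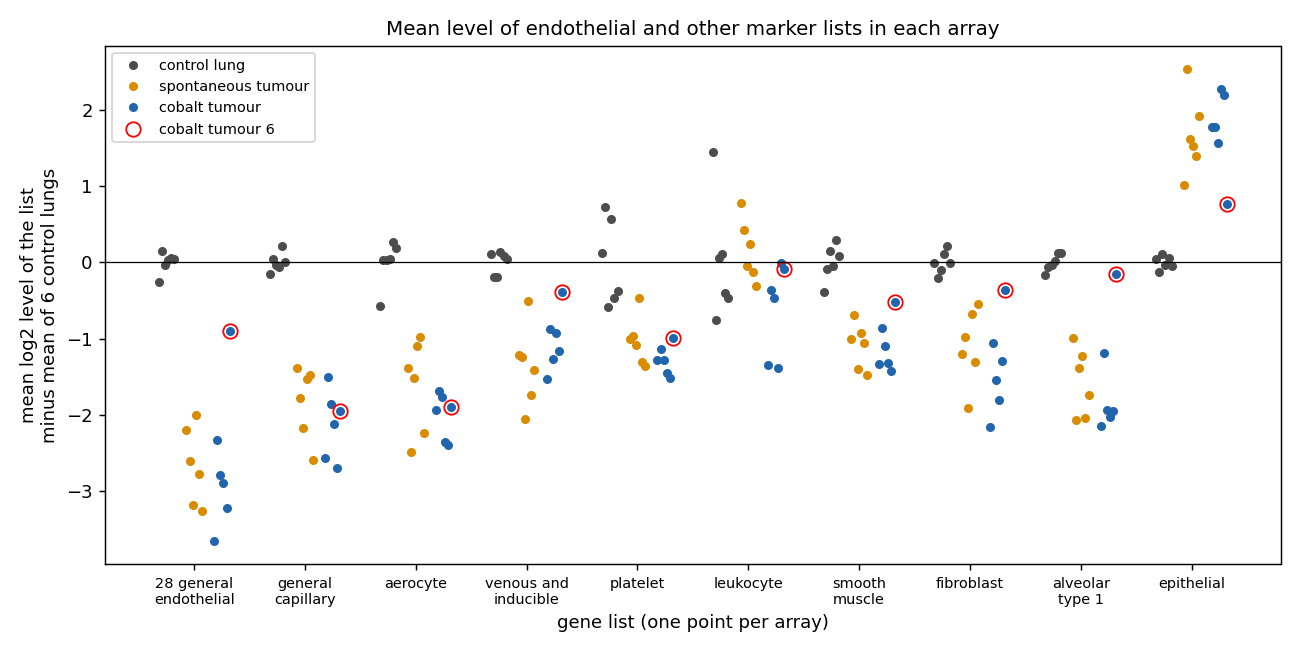
Mean log2 level of 10 gene lists in each array, relative to the mean of the 6 control lungs; each point is 1 array and the red ring is cobalt tumour 6. The 28 general endothelial genes lie between -3.65 and -0.9 in all tumours, the epithelial list lies above the controls in all tumours, and the venous and inducible list lies between -2.05 and -0.39 in the tumours.

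Further lists were chosen with earlier results of these data known, so their counts describe the data and are no independent support. Of all genes 18.2% fell and 16.4% rose in spontaneous tumours, and 19.3% fell and 14.7% rose in cobalt tumours. Of the 28 measured genes of a wider endothelial list 26 fell and 1 rose in each kind of tumour, with medians of -2.3 in spontaneous and -2.29 in cobalt tumours. The gene that rose was Hhex, a homeobox factor, by 1.53 in spontaneous tumours, and the one that did not pass was the VEGF receptor gene Flt1 (-0.32), both named after their values were seen. Of 11 arterial genes 9 and 8 fell, of 6 further venous genes 4 fell in each, and of 4 further lymphatic genes 3 and 2 fell. Of 11 other capillary genes 7 fell and 2 rose in spontaneous and 6 fell and 2 rose in cobalt tumours. Of 12 genes of sprouting tip cells and tumour vessels 2 fell and 3 rose in spontaneous tumours and 2 fell and 1 rose in cobalt tumours, with medians of 0.04 and -0.1. Dll4 stands in this list and in the arterial one.

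Lists of other cell types moved in the same arrays. All 7 epithelial genes rose in both kinds of tumour, and 5 of 7 alveolar type 1 genes fell in both. The alveolar type 1 list shares Cav1 with the wider endothelial list and Pdpn with the further lymphatic genes. Of 8 smooth muscle and pericyte genes 6 fell and 1 rose in both. The epithelial list mean, relative to control lung, was 1.01 to 2.53 in spontaneous and 0.77 to 2.27 in cobalt tumours, lowest of the cobalt group in cobalt tumour 6. Among 7 leukocyte genes 0 fell and 1 rose in spontaneous tumours, and 3 fell and 1 rose in cobalt tumours. Their list mean was -0.75 to 1.45 in control lung, -0.31 to 0.78 in spontaneous and -1.38 to -0.01 in cobalt tumours. The part of these lists in the endothelial values was not tested.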

How the data were processed

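RNA was hybridised to Affymetrix 3′ arrays. Per the submitters' processing notes the tool was RMA, and the authors deposited log2 values. The RMA version is not given in the sources used here. This table held 45101 probe sets, of which 34945 named 1 gene symbol, 932 several and 9160 none, besides 64 control probe sets. For each of 18193 genes the brightest probe set (highest 18-array mean) was kept. No further normalization was applied, and the number of arrays limits the precision.

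Groups were taken from the labels. One limma 3.58.1 model (R 4.3.3, lmFit and eBayes, two-sided) was fitted over all genes and 18 arrays, without covariates, with Benjamini-Hochberg adjustment over all genes at 0.05. The submitters' own permutation program was not used here. On simulated data the fit recovered 84% of genes changed by 1 and 90% of those changed by 2 on the log2 scale in the spontaneous comparison. The exact permutation test recovered 0% of either size there, where only 100 genes changed by each size. With 924 assignments its p-values cannot be small enough to pass adjustment when so few genes change. In the data it passed 6324 genes in spontaneous and 6411 in cobalt tumours against control lung, so the simulation does not describe it there. Between the tumours it passed 0 of all genes, which says nothing of a lack of change. Deviations from the group means correlated at -0.338 to 0.195 between arrays with the same replicate number (2 of 18 above 0.1). Between arrays with different numbers they ran from -0.388 to 0.475. The measure thus gave no sign of pairing by number, but it cannot exclude that numbers pair arrays. Controls 5 and 6 were the most alike arrays (r = 0.9966, SD of differences 0.181, 0.02% identical values) and were kept as 2 arrays.

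The members and lists were chosen with earlier results of these data known. Values by group were printed in full for the 12 deepest changes in either comparison and for genes that missed the threshold in either. Of the further lists, Tspan7, Sdpr, Ccl21a, Gp1ba and Lamp3 were not analysed here. Alternatives covered normalization, dim genes, probe sets, variance model, array weights, arrays fitted, replicate block, sex-linked RNA, an exact permutation test over 924 assignments, and each array left out.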

Additional observations from a re-analysis of the deposited data

Results flagged for a closer look

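In 8 of 126 groups of 6 arrays, 1 array lay farther from the other 5 than Dixon's 95% limit allows, where chance flags about 1 in 20 groups. Control 1 was the low array in 5 of them. It read 11.58 for Esam (the other controls 11.85 to 11.97), 11.45 for Icam2 (11.9 to 12.11) and 11.27 for Foxf1 (11.59 to 11.73). It also read 8.52 for Apln (9.28 to 9.65) and 8.85 for Tbx3 (9.35 to 9.64). Cobalt tumour 6 read 8.9 for Clec1a, above the 6.11 to 6.77 of the other cobalt tumours. Cobalt tumour 5 read 5.88 for Ednrb, below the 7.69 to 8.36 of its group. Spontaneous tumour 3 read 6.91 for Nostrin, below the 7.64 to 8.05 of its group.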

How the results depend on the processing

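The number of genes that fell stayed at 33 to 36 in spontaneous and at 36 to 37 in cobalt tumours over every alternative run. With 1 array left out it was 35 to 36 and 36 to 37, with 0 genes higher in both and 0 in either direction between the tumours. With the replicate block, although it is unknown whether the numbers pair arrays, the counts were 35, 36 and 0. In spontaneous tumours 1 gene rose with only the Xist-high arrays (Vcam1) and 1 without the 3 arrays that stood apart (Apln). In cobalt tumours 1 rose when only the 12 arrays compared were fitted and 1 by the exact permutation test (Vcam1 in both, adjusted p = 0.0444 in the second). Between the tumours 2 genes (Aplnr and Car4) were lower without the 3 arrays that stood apart, an alternative added after seeing the data. There 354 of all 18193 genes passed in either direction. With Y-linked RNA as a covariate Emcn (-0.97, adjusted p = 0.0718) and Sox17 (-1.91, adjusted p = 0.0508) no longer passed in spontaneous tumours. Car4 passed there in 9 alternatives, among them cyclic loess (-1.18, adjusted p = 0.0363), but shrank to -0.52 (adjusted p = 0.27) without the 3 arrays that stood apart, and Icam1 passed in cobalt tumours in 5. The cause of these shifts was not tested.

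Signs turned only for genes near 0 or of wide spread. Vcam1 in spontaneous tumours turned to 1.31 with only the Xist-high arrays and to 0.11 with Y-linked RNA as a covariate, and its difference between the tumours turned to -0.58 with only the Xist-high arrays. Sele in spontaneous tumours turned to 0.06 with cyclic loess and 0.06 with only the Xist-high arrays, and ran from -0.06 to 0.02 with 1 array left out; in cobalt tumours it was 0 with only the Xist-high arrays. Prox1 in cobalt tumours turned to -0.02 with all its probe sets averaged, to 0 with array weights, to -0.03 without the 3 arrays, and ran from -0.05 to 0.09 with 1 array left out. Selp ran from -0.37 to 0.04 in spontaneous and from -0.28 to 0.13 in cobalt tumours with 1 array left out. Between the tumours, where no gene passed in the main fit, signs were counted over pairs of a gene and a fit, for all 42 genes. With 1 array left out the sign turned in 92 pairs, beside 664 without a turn. In the other fits it turned in 63 pairs, beside 395 with the same sign and call and 2 that newly passed. Cyclic loess moved the median of all genes by less than 0.1. Second probe sets of 21 genes had the sign of the one used for 19 of them in each comparison with control lung, the exceptions being Prox1 and Selp. Without detection calls, RMA values near the floor (Sele, Prox1) set no lower limit on what could be seen.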
